A study of Mus musculus with 4 samples.

Results

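The binding of CTCF at 10 genes of calcium handling in heart muscle is described here from chromatin immunoprecipitation and sequencing (ChIP-seq) of mouse heart. The genes were Ryr2, Casq2, Atp2a2, Pln, Sln, Cacna1c, Cacnb2, Cacna2d1, Slc8a1 and Camk2d. A peak was counted for a gene when its summit lay in the gene body or within 50 kb of either end on mm10, and 89 of the 54309 summits of the conservative list met this rule, all of them at 1 gene each. The tissue was heart of adult female B6CASTF1/J mice aged 2 months, a first-generation cross of C57BL/6J and CAST/EiJ. Pools G and H joined 2 heart biosamples each and were sequenced as 2 libraries each, so 4 libraries and 2 biological replicates underlie the lists. There was no treatment, second tissue or second genotype, so no test between conditions is possible, and genes or summits are not replicates. Heart tissue mixes muscle cells with many other cell types and carries the chromosomes of both parents. The lists separate neither, and no RNA data were used here that could check the tissue by its markers. The read depth is unknown. Each summit carries a signal that the authors deposited from their peak caller without naming its unit. It is compared only within a list, and the conservative list had a median of 286.

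In a heart muscle cell, calcium enters through the L-type channel at each beat and opens the ryanodine receptor in the membrane of the sarcoplasmic reticulum, which releases the calcium that drives contraction. A calcium pump returns it to the store under the control of small membrane peptides, and a sodium-calcium exchanger carries the rest out of the cell. CTCF is a zinc-finger protein that binds an asymmetric motif and halts cohesin as it extrudes chromatin loops. Loop anchors are known to carry motifs that point towards each other, which is why the strand of each motif is given. The motif searched was the 12-base CTCF core, on both strands and with at most 1 mismatch, and all of it had to lie within 100 bp of the summit.

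The core at the strongest core-bearing summit of each gene is shown first. At Ryr2, Atp2a2, Sln, Cacnb2 and Slc8a1 the strongest summit of the gene had no core, so the site shown is a weaker one. Each sequence is read 5′ to 3′ on the strand of the motif, from GRCm38.p6 (mm10). The 12 bases of the core are in capitals, with 8 bases on either side.
Ryr2 (chr13:11563817-11563844, minus strand): tgtcacttCCAGCAGGTGGCactgcagc
Casq2 (chr3:102062435-102062462, minus strand): tcctctctCCAACAGGGGGCggggtgca
Atp2a2 (chr5:122486430-122486457, minus strand): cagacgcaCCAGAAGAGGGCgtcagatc
Pln (chr10:53346676-53346703, plus strand): ctacttaaCCACCAGGGGGCagacccac
Sln (chr9:53825440-53825467, minus strand): cacatttaCCAGCAGGGGGCagagtcag
Cacna1c (chr6:119220461-119220488, plus strand): cttgataaCCACCAGGGGGCaatattac
Cacnb2 (chr2:14703421-14703448, minus strand): tattgttgCCACTAGGTGGCaggctttg
Cacna2d1 (chr5:16309778-16309805, plus strand): agatggcgCCACTGGGTGGCagcactgc
Slc8a1 (chr17:81666743-81666770, plus strand): aatacttgCCACAAGAGGGAgcagtaga
Camk2d (chr3:126576093-126576120, plus strand): ctcagaggCCAGAAGAGGGCactagata
The cores of Casq2, Cacna2d1 and Slc8a1 have 1 mismatch and the other 7 none. Pln and Cacna1c share CCACCAGGGGGC at their strongest sites, with signals of 805 and 796, the highest of all 89 summits. Atp2a2 and Camk2d share CCAGAAGAGGGC, a word found mostly in repeats, with signals of 288 and 503.

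CTCF was bound in or near each of the 10 genes, with 4 to 16 summits a gene, and at the promoters of 5, against 34.6% of all protein-coding genes. In the list as a whole, 87.1% of protein-coding genes had a summit in the body or within 50 kb. Atp2a2 and Cacna1c had 16 summits each and Ryr2 15, while Sln had 4 and Cacna2d1 5. Of the 89 summits, 57 lay in the gene bodies, 20 upstream and 12 downstream. Gene bodies held summits in 9 of the 10 genes, all but Sln, against 50.9% of all protein-coding genes, a share that grows with gene length. All 6 members of at least 200 kb held one, as did 95.2% of all protein-coding genes of that length, and 3 of the 4 shorter members did, against 48.7% of shorter genes. The bodies carried 20.9 summits per Mb over 2.72 Mb. All protein-coding bodies together carried 28.4 per Mb and those of at least 200 kb 16.7. The shortest genes were the extremes, with 12.02 summits per 100 kb in Pln, from 1 summit in 8.32 kb, and 0 in Sln.

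**Figure D1:**
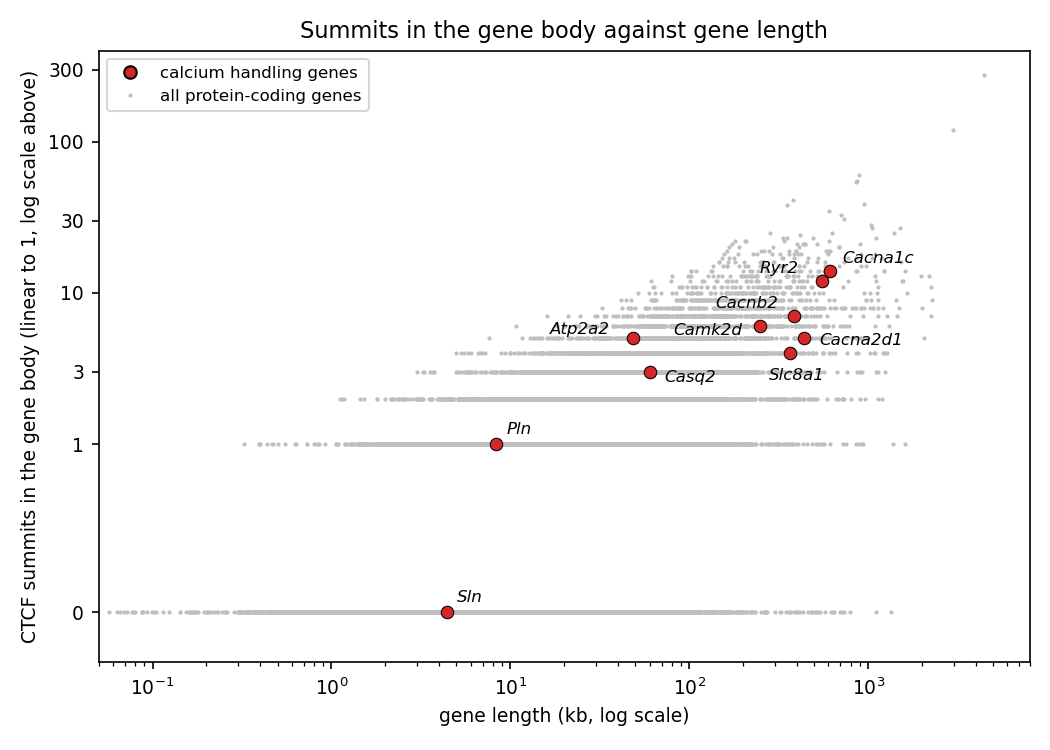
Number of CTCF summits in the gene body against gene length in kb (log scale) for the 10 calcium handling genes (red points) and all protein-coding genes (grey points); the count axis is linear to 1 and logarithmic above. The members lie within the grey cloud at their lengths, from Sln with 0 summits in 4.40 kb to Cacna1c with 14 in 609 kb.

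Promoter summits, within 1 kb of a transcription start site (TSS) of the gene itself, were present at Ryr2, Atp2a2, Cacna1c, Cacnb2 and Camk2d and absent at Casq2, Pln, Sln, Cacna2d1 and Slc8a1. That is 5 of 10 genes (95% exact binomial interval 18.7 to 81.3%), against 34.6% of all protein-coding genes. These intervals cover counting error only. Among genes of at least 200 kb the members had 4 of 6 and all such genes 50.7%, so the count for the members is not set apart from that background. At or above the median signal of the list were 3 of the 10, at Ryr2, Cacna1c and Camk2d, against 17.9% of all genes. Introns held 52 of the 89 summits, 58.4% (47.5 to 68.8), against 41.1% of all summits. Intergenic sequence held 19, or 21.3% (13.4 to 31.3), against 33.6%, and promoters of any gene 13, or 14.6% (8.01 to 23.7), against 20.4%. The remaining 5 lay in 3′ UTRs (2, against 1.93% of all), coding exons (2, against 1.31%) and another exon (1, against 1.57%), with 0 in 5′ UTRs, against 0.0589%. The rule takes in whole genes with their introns.

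The release machinery, Ryr2 and Casq2, had its strongest summits in different places, at the promoter of Ryr2 and upstream of a Casq2 promoter without one. Ryr2 encodes the cardiac ryanodine receptor and spans 554 kb of chromosome 13, from 11553102 to 12106945 on the minus strand. Its promoter summit, in the peak from 12106808 to 12107206, lay 52 bp upstream of a TSS with a signal of 625. The single-pool signals were 324 in pool G and 309 in pool H. A weaker promoter summit, at 98.2, lay 147 bp inside the gene from another Ryr2 TSS. Its pool G and pool H signals were 59.96 and 38.0, and only the pool G list held it. The first intron held 5 further summits between 5.99 and 94.5 kb from the gene start, at 96.8 to 219. Further into the gene the signals were uneven, with 262 in intron 2, 332 in intron 8, 434 in intron 27 and 499.96 in intron 100, the last 10.7 kb before the 3′ end. Between these lay summits of 109 in intron 15 and 204 in intron 51. Besides the promoter, the 3 summits in introns 8, 27 and 100 stood above the list median, and the other 11 Ryr2 summits did not. No summit lay within 50 kb downstream of Ryr2, and the next core-bearing summit beyond that end was 611 kb away. Upstream, 2 intergenic summits at 18.1 and 45.3 kb had signals of 239.7 and 81.9.

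Casq2 encodes cardiac calsequestrin, which binds calcium inside the store. It had no summit within 1 kb of any of its 5 TSSs, and no candidate peak there even in the ranked list that holds peaks below the threshold. Upstream, the summit nearest the gene start was 4.37 kb from it, in the peak at 102081804 to 102082257 of chromosome 3, and reached 683 (374 in pool G and 312 in pool H). At 24.0 kb upstream stood the strongest Casq2 summit, at 733 (382 in pool G and 354 in pool H). Both exceeded the promoter summits of all 5 members that had one. The other 2 upstream summits, at 26.1 and 41.1 kb, had 177 and 174. The 3 summits in the body had 196 and 326 in intron 5 and 242 in intron 7. They were weaker than the upstream summits of 683 and 733 and stronger than those of 177 and 174. That of 326 was the nearest to any Casq2 TSS, at 3577 bp, and that of 242 lay within 1 kb of the TSS of Gm43244. None lay within 50 kb downstream.

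The uptake genes differed in how their summits were placed. Atp2a2 encodes SERCA2, the pump that refills the store. Its 16 summits crowded into a window of 149 kb, at 108 summits per Mb, against 23.9 over the windows of all members. Pln, Casq2 and Sln, also short genes, had 55.4, 43.7 and 38.3 per Mb. The windows of other calcium genes shorter than Atp2a2, taken up below, held from 2 summits (Sri) to 15 (Orai1). Most Atp2a2 summits were weak, and only 2 reached the list median. The promoter summit on chromosome 5, in the peak from 122502025 to 122502330, lay 11 bp inside a TSS, in exon 1, with a signal of 259. Its pool G signal was 121 and its pool H signal 141. This was the single one of the 87 member summits with both values at which pool H was the higher. The strongest Atp2a2 summit, at 621, was intergenic and 45.4 kb upstream. The other 3 upstream had 114, 123 and 216, the last of them 4.44 kb from the gene and within 1 kb of the TSS of Gm22965. Intron 5 held 3 summits, at 288, 119 and 229, all in soft-masked repeats, and coding exon 20 held one at 137. Downstream, 7 summits ran into the neighbouring genes Anapc7 and Arpc3, from 14.97 to 252. The lowest of these was the lowest of all 89 and lay 204 bp from another at 63.4. The pool G list held both and the pool H list neither. These summits had the same matched calls behind them, of 38.5 in pool G and 27.6 in pool H.

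Pln and Sln encode phospholamban and sarcolipin, small membrane proteins that inhibit the pump, and neither had a promoter summit or a promoter candidate. Pln lies whole within Cep85l, a gene on the other strand of chromosome 10, and all 6 Pln summits lay in the body of Cep85l. Its body, from 53337667 to 53345987, held a summit of 548 in its only intron, 3.83 kb from the start, with 289 in pool G and 267 in pool H. At 0.70 kb beyond the 3′ end stood the strongest summit of all members, at 805 (431 in pool G and 379 in pool H), followed 2.45 kb beyond the end by one of 762 (415 in pool G and 353 in pool H). The 3 summits at and just past Pln were therefore all above the list median, and they spanned 6.93 kb. The other 3 were farther off, with 449.7 at 31.5 kb and 85.0 at 29.8 kb upstream and 95.3 at 33.4 kb downstream, the last near a TSS of Cep85l. Sln, on chromosome 9 from 53850164 to 53854560, stood in an empty stretch between 20.6 kb upstream and 35.7 kb downstream. Upstream lay 3 intergenic summits, at 31.2, 24.7 and 20.6 kb, with signals of 637, 455 and 320, and downstream a single summit of 195.

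**Figure D2:**
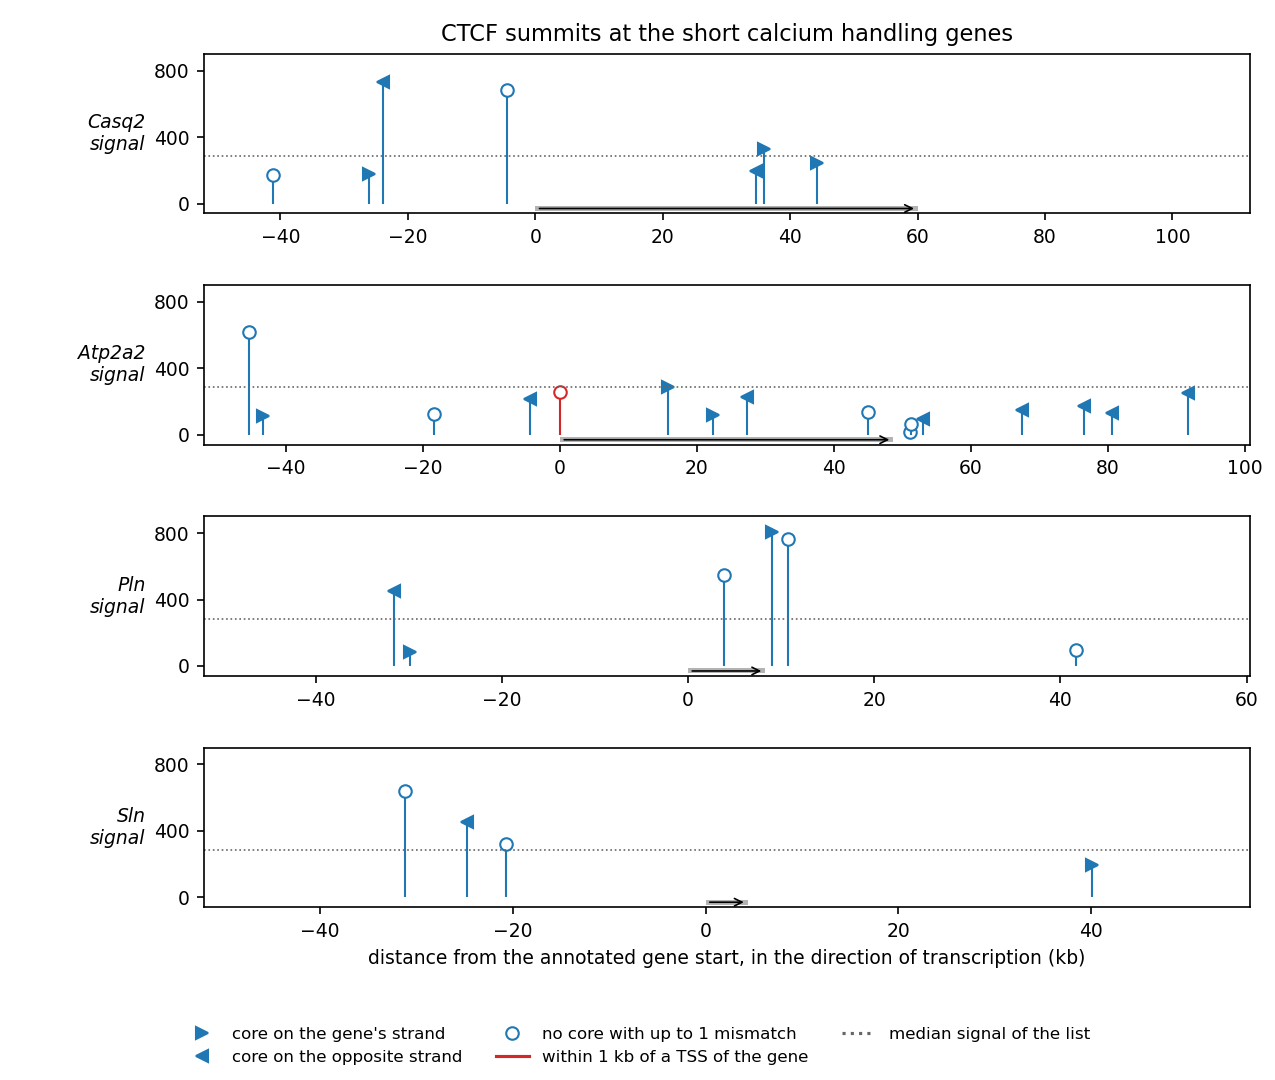
Signal of each CTCF summit (caller units) at Casq2, Atp2a2, Pln and Sln against distance from the annotated gene start in kb in the direction of transcription; the grey bar is the gene body, red marks a summit within 1 kb of a TSS of the gene, and triangles give the strand of the core relative to the gene. Pln has its 3 tallest summits at and just past the gene, and a further one of 449.7 upstream. Casq2 has its tallest, of 733 and 683, upstream and one of 326 in its body, and Sln has its 3 tallest upstream.

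Among the entry channel genes, Cacna1c had 8 summits at or above the list median and Cacnb2 and Cacna2d1 had 3 each. Cacna1c encodes the pore of the L-type channel, Cav1.2, and spans 609 kb of chromosome 6 on the minus strand, of which the first part overlaps Dcp1b. The promoter summit, in the peak from 119109089 to 119109503, lay 759 bp upstream of the nearest Cacna1c TSS and 1.36 kb upstream of that of the principal transcript, with a signal of 508. Its pool G and pool H signals were 267 and 237. The annotated gene begins 88.4 kb upstream of the principal TSS, so this promoter summit is inside the annotated body, and the outermost 5′ end had none. On either side stood 643 in intron 1, 3.50 kb into the principal transcript, and 579 at 21.9 kb upstream of it. Intron 3 held 719, with 392 in pool G and 327 in pool H, and intron 30 held 585. In the stretch that overlaps Dcp1b lay 301 and 359, the latter within 1 kb of a TSS of Dcp1b. No other member had as many as 8 summits at or above the list median, and the other 8 Cacna1c summits had 88.3 to 235. The strongest, at 796, lay 24.1 kb beyond the 5′ end in the 3′ UTR of Dcp1b. The pool G list left it out although pool G gave it a signal of 432, against 365 in pool H, whose list held it. A summit of 88.3 at 49.8 kb, just inside the 50 kb limit, lay in Cacna2d4, which encodes another channel subunit.

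Cacnb2 encodes a beta subunit that brings the channel to the membrane. Its 7 summits all lay in the body, with 588, 583 and 445 between 74.0 and 109 kb from the gene start, in intron 2 of the principal transcript, and 111 to 196 at the other 4. The promoter summit was weak, at 121, and lay 57 bp upstream of the principal TSS and within 1 kb of that of Gm10849. The matched calls behind it had 72.0 in pool G and 54.4 in pool H. The pool H list held it and the pool G list did not. Cacna2d1 encodes the alpha-2/delta-1 subunit and had 5 summits, all intronic and none in the first 177 kb of its 440 kb. The signals were 82.3 and 102 in intron 3, 295 in intron 5, 473 in intron 10 and 692 in intron 12 (384 in pool G and 311 in pool H). In the direction of transcription each of these was higher than the one before. The first, at 82.3, was in neither single-pool list. The 4 promoter candidates of Cacna2d1 in the ranked list reached at most 33.6, with a scaled IDR of 67, where 540 is the threshold.

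Slc8a1, the gene of the sodium-calcium exchanger that extrudes calcium, had 6 summits and none at a promoter. The 4 in its body, on chromosome 17 from 81373105 to 81738377, had signals of 221 and 462 in intron 1, 305 in intron 2 and 110 in intron 10. The strongest, at 661 (361 in pool G and 298 in pool H), lay 49.2 kb upstream, near the edge of the window. Downstream, 12.4 kb past the end, lay a summit of 246. Its 2 promoter candidates had signals of 35.3 and 34.9. Camk2d encodes the kinase CaMKII delta, which phosphorylates the release channel and phospholamban. Its promoter carried adjoining summits of 441 and 101 on chromosome 3, the stronger 56 bp upstream of a TSS and the weaker 13 bp inside another. Pool G and pool H gave 240.1 and 199 for the stronger and 77.8 and 60.1 for the weaker. A summit 20.2 kb upstream had 503, and intron 2 held 291 and 103, the weaker within 1 kb of the TSS of Gm15551. The other 2, at 82.0 and 92.5 near the 3′ end, were in the pool G list and not in the pool H list.

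**Figure D3:**
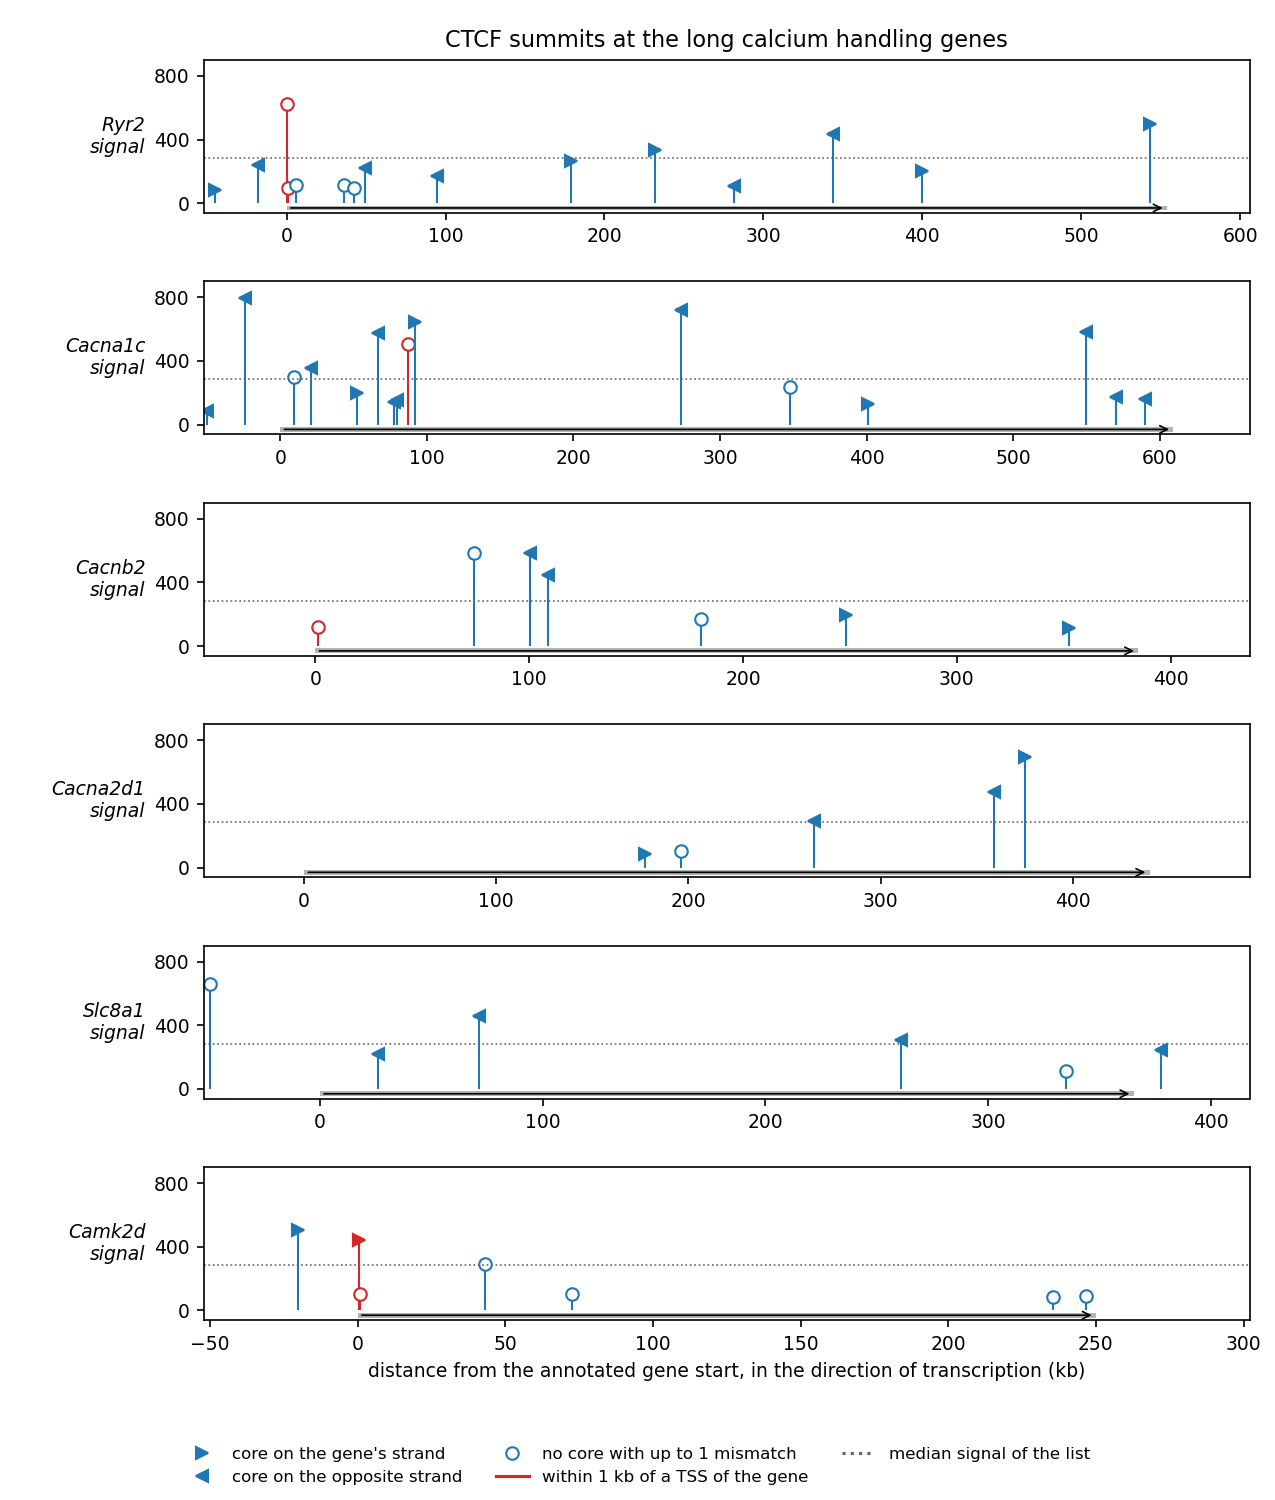
Signal of each CTCF summit (caller units) at the 6 members of at least 200 kb, drawn as in the map of the short genes. Promoter summits (red) are tall at Ryr2, Cacna1c and Camk2d and low at Cacnb2; Cacna2d1 and Slc8a1 have none.

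The limits of the window fell between the following summits. Just inside lay those of Cacna1c at 49.8 kb and Slc8a1 at 49.2 kb, with 88.3 and 661. Just outside lay those of Ryr2 at 51.96 kb, Cacnb2 at 52.6 kb and Camk2d at 57.4 kb, with 99.6, 281 and 617.

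The members' summits had a lower median signal than the list. It was 221, against 286 for all summits, and 36 of 89, 40.4% (30.2 to 51.4), reached that median, against 50% of all by construction. Intronic summits had medians of 225 in the members and 266 in the list, and intergenic ones 239.7 and 342. The core was found at 57 of the 89, 64.0% (53.2 to 73.9), against 66% of all summits and 5.55% of windows 1 kb away. It was exact in 32, or 36.0%, against 33%. The median distance between core centre and summit was 5.5 bp for the members and 7.5 bp over the list. Intronic summits of the members had a core in 39 of 52, 75.0% (61.1 to 86.0), against 71.5% of all intronic summits, intergenic ones in 10 of 19, against 73.2%, and promoter summits in 5 of 13, against 43.3%.

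Several of the strong summits had no core. Of the 36 member summits at or above the list median, 12 had no core within 100 bp, and these included the strongest summits of Sln, Atp2a2, Slc8a1, Ryr2 and Cacnb2. A core was thus present at 24 of the 36, 66.7% (49.0 to 81.4), against 75.4% of all summits at or above the median. Of the 12 without one, 10 had a match with 2 mismatches, as did 79.8% of all such summits. Of windows 1 kb away, 28.4% had a match with at most 2. None of the 12 was marked by a matrix learned from core-bearing summits outside repeats, which marked 6.74% of all such summits. The closest matches at 4 of them are shown, the 2 with the highest signal and the 2 at promoters of their own gene, with the 12 aligned bases in capitals.
Pln, 2.45 kb past the end (chr10:53348426-53348453, plus strand): taaaacatCCACTGGAGGGAagcaaaca
Casq2, 4.37 kb upstream (chr3:102082038-102082065, plus strand): cggcttgtCCACTGGGTGGAgtatttta
Ryr2, promoter (chr13:12106973-12107000, minus strand): ccaagcagCCAGTAAGCGGCactgtgcc
Cacna1c, promoter (chr6:119109322-119109349, plus strand): cgcacgacCCTCTAGATGGGgctggtga
A match describes the letters near the summit and not a tested site.

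A single word, CCAGAAGAGGGC, accounted for 15 of the 57 cores, and 14 of these lay in soft-masked repeats. That is 26.3% of the members' cores (15.5 to 39.7), against 18.8% of all 35846 cores of the list. In the whole list it stood at 6754 summits, 92.7% of them soft-masked, with a median signal of 163. In the members its median was 196 and its range 88.3 to 503. Atp2a2 had 6 of the 15, Cacna1c 4, Ryr2 3 and Casq2 and Camk2d 1 each; the other 5 genes had none. The 3 member summits with CCACCAGGGGGC were outside repeats, with 114 at Atp2a2, 796 at Cacna1c and 805 at Pln, and the 672 summits of the list with that word had a median of 659. Repeats held 21 member summits, 23.6% (15.2 to 33.8), against 21.8% of all, and 20 of the 21 had a core, against 90.7%. No mappability track was used here.

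On the gene's own strand lay 16 of the 37 cores in gene bodies, 43.2% (27.1 to 60.5), against 49.6% of cores in all protein-coding bodies. This background leaves out summits that lie in the bodies of genes on both strands, a filter not applied to the 37. By gene, the body cores were split 4 on the same and 4 on the opposite strand in Ryr2, 2 and 2 in Cacnb2, and 2 and 2 in Cacna2d1. Cacna1c had 3 on the same and 8 on the opposite strand, and Slc8a1 0 and 3. Casq2 and Atp2a2 had 2 on the same and 1 on the opposite strand each, and Camk2d 1 and 0, while the bodies of Pln and Sln held no core. Counts this small within a gene were not tested. Among 47 pairs of neighbouring cores within a window, 27 were tandem (both on one strand), 9 convergent and 11 divergent, or 57.4% tandem, against 51.8% of all neighbouring pairs in the list. The nearest cores on either side of a gene pointed towards it from both ends at Cacna2d1, Slc8a1 and Camk2d, 3 of 10 genes (6.67 to 65.2%), against 27.9% of all protein-coding genes. These pairs spanned 1031, 539 and 328 kb. The same count of 3 was found with the exact core, with the matrix, with the second list of both pools and with the list of each pool alone. These alternatives were chosen after the data had been seen.

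Most of the members' summits were in the list of each pool. Pool G gave the higher signal at nearly all of them, as over the whole list. The pool G list held 83 of the 89 (91.4% of all summits), the pool H list 81 (89.6% of all) and both lists 77 (85.3% of all). In neither list were 2, at Cacnb2 (signal 111) and Cacna2d1 (82.3). Peaks entered the conservative list because both pools ranked them alike, which leaves these shares descriptive. Pool G exceeded pool H at 86 of 87 summits with both values, and at 51862 of 53538 in the whole list. The median ratio was 1.27 in the members, against 1.23 in the whole list. In the members the ratio ran from 0.860 at the Atp2a2 promoter to 1.88 at the weakest Slc8a1 summit. None of these departed by more than 2-fold from the median of the list, as 216 of 53538 did in the list. The ratio was higher at weak summits. Its medians were 1.37 below the list median and 1.21 at or above it in the members, and 1.35 and 1.17 in the list. Among members it was 1.38 in soft-masked repeats and 1.23 elsewhere, and 1.29 and 1.21 in the list. Below the median signal the members had 1.38 in repeats and 1.35 elsewhere, and the list 1.346 and 1.345. Each pool gives 1 list, so there is no spread within a pool and no test between them.

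**Figure D4:**
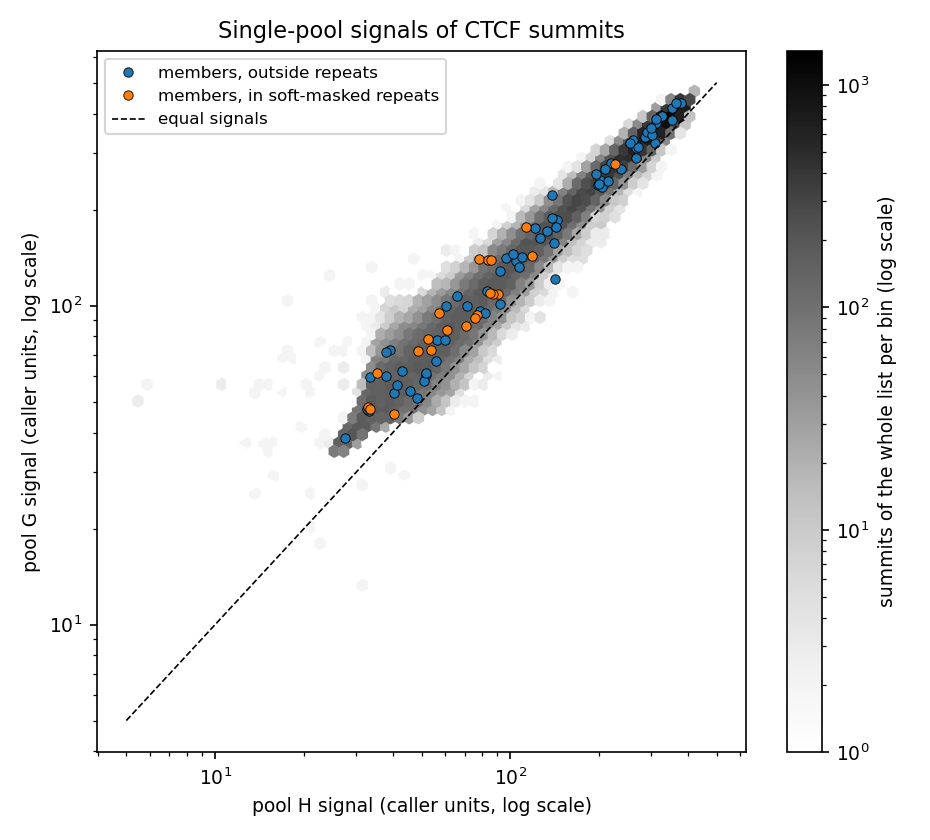
Pool G signal against pool H signal (caller units, log scales) at the members' summits, in soft-masked repeats (orange) and elsewhere (blue), over all summits of the conservative list (grey bins). All but 1 of the 87 member summits with both values lie above the dashed line of equal signals. The exception is the Atp2a2 promoter. Of the summits of the whole list with both values, 51862 of 53538 lie above the line.

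Other genes of calcium handling, from a list of 52 of which 51 were found as protein-coding genes in the annotation, had promoter summits at 29 of 51 genes, 56.9% (42.2 to 70.7), beside 5 of the 10 members and 34.6% of all protein-coding genes. At or above the list median they had 13, or 25.5%, beside 17.9% of all genes. The direct paralogs of the members had 7 of 18, at Ryr1, Atp2a3, Cacna1s, Cacnb1, Cacnb3, Camk2a and Camk2g. No promoter summit was found at Ryr3, Casq1, Atp2a1, Slc8a2, Slc8a3, Camk2b, Cacna1d, Cacnb4, Cacna2d2, Cacna2d3 and Cacna2d4. Partners and regulators had 22 of 33. Among these 51 other calcium genes, the strongest promoter summits were at Camk2g, Srl and Stim1. Camk2g, a further CaMKII gene, had 796. Srl, which encodes sarcalumenin of the sarcoplasmic reticulum, had 771, and Stim1, the sensor of store depletion, 749. Between paralogs, the promoter signal was 625 at Ryr2 and 135 at Ryr1, the receptor of skeletal muscle, while Slc8a1, Slc8a2 and Slc8a3 all had none. It was 259 at Atp2a2 and 246 at Atp2a3, and 508 at Cacna1c and 584 at Cacna1s. Cacnb2 had 121, beside 118 at Cacnb1 and 703 at Cacnb3. Camk2d had 441, beside 107 at Camk2a and 796 at Camk2g. The member was thus not always the higher.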

How the data were processed

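CTCF ChIP-seq of heart was analysed from 7 deposited peak lists on mm10, per the labels; another was not used. The readme texts beside the samples gave the pool of each list. In the ranked list matched between pools, 71.7% of first members were identical to a pool H record and 77.3% of second members to a pool G record, and 0 crosswise. For each peak the authors deposited a signal score without a unit and a scaled score of the irreproducible discovery rate (IDR), in which 540 corresponds to 0.05 and 830 to 0.01. Neither the aligner nor the caller of the peaks is given in the sources used here. Signal scores rise with sequencing depth, and levels were therefore compared within a list only; the ratio of pool G to pool H is a description that depth can move.

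Summits were set against GENCODE M21 and GRCm38.p6. The main list was the conservative one, made from both pools. A summit within 1 kb of any TSS was classed as promoter; the rest were classed by exon (UTR before coding, coding before other), then intron, then intergenic. Intron and exon numbers are those of the principal transcript. Single-pool signals are from the nearest summit within 100 bp in the ranked list of each pool, and a summit was held by a single-pool list when the peaks shared at least 1 bp. The best core had the fewest mismatches and then lay nearest the summit. The matrix, an alternative, was learned crosswise between odd and even chromosomes, with 4 bases added on either side, 3 refits, a pseudocount of 1% and a threshold passed by 1% of windows 1 kb away; a smaller pseudocount, tried first, had marked exact cores only. Shares have 95% exact binomial (Clopper-Pearson) intervals, and no test was made. The search and the assignment to genes were tested on simulated data. Named are all members, the paralogs and the 3 strongest promoters among the other calcium genes. The members and gene lists were chosen with earlier results of these data known. The software was pysam 0.24.0, scipy 1.17.1, matplotlib 3.10.9, pandas 2.3.3 and numpy 2.4.6 under Python 3.11.15.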

Additional observations from a re-analysis of the deposited data

Results flagged for a closer look

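The strongest candidate peak in any of the 10 windows was absent from the conservative list. It lay in a coding exon of Camk2d, 175 kb from the gene start, on chromosome 3 from 126771529 to 126772068, and the ranked list gave it a signal of 833.7, above all 89 listed summits. Its pool G signal was 429 and its pool H signal 408, but its scaled IDR was 385, under the threshold of 540. A summit of the pool G list lay within 100 bp of it, and none of the second list of both pools or of the pool H list did. It carried a core with 1 mismatch on the strand opposite to Camk2d, shown with the core in capitals.
Camk2d, coding exon (chr3:126771744-126771771, minus strand): gcatgcaaACACCAGGGGGCgtgtgtta
Over the whole ranked list, 388 of 1372 candidates with a signal of at least 800 were under the threshold, 28.3%. Of those at or above the median of the conservative list, 421 of 27580 were under it, 1.53%, and these 421 include the 388. Counts at Camk2d and at strong sites elsewhere are therefore of the peaks that passed IDR, and the strongest candidates did not all pass. It was the only candidate of the members' windows that was under the threshold and at or above that median.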

How the results depend on the processing

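Across 53 other settings of 8 results, 47 left the value within 1.5 times the count, the 95% interval of the share or 1 SD of the ratio, and 6 did not. Without flanks 57 summits were counted in place of 89. Within 5 kb of a TSS 8 members had a promoter summit, Casq2, Pln and Slc8a1 in addition, and with the outermost 5′ end alone 3 did, Ryr2, Atp2a2 and Camk2d. By that end, 17 of the other calcium genes had a promoter summit in place of 29. The share of all protein-coding genes was not computed within 5 kb or by that end. These counts therefore have no background beside them. The exact core was found at 36.0% of member summits and the matrix at 44.9%, in place of 64.0% with 1 mismatch allowed; over all summits these shares were 33%, 49.2% and 66%. The same 5 members had a promoter summit, and the same 9 a summit in the body, in the conservative list, the second list, the list of each pool alone and at an IDR of 0.01. At Cacnb2 the pool G list counted through a different peak within 1 kb of a TSS, not the promoter summit described above. No paired analysis was possible because the results come from no test and the libraries of a pool are merged in each list; for the same reason no single library could be left out. The lists hold no read depth, so a missing peak at Sln or Casq2 cannot be told apart from binding below the depth, and the signal sets no level between lists.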
